A study of Homo sapiens with 9 samples.

Results

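Axon guidance ligands and receptors are the genes described here, across 3 human neuroblastoma cell lines. The members were taken from the deposited table: semaphorins of classes 3 to 7, plexins, neuropilins, EPHA and EPHB receptors, ephrins, SLITs, ROBOs, the netrins NTN1, NTN3 and NTN4, the UNC5 receptors and DCC. They are 68 of 19706 genes, 34 ligands and 34 receptors, matched by symbol alone. Neuroblastoma is a childhood tumour of the sympathetic branch of the neural crest. Polyadenylated RNA was sequenced from untreated cells, with 3 libraries for each line. Kelly and BE(2)C carry amplified MYCN. SH-SY5Y is the 1 line without the amplification, so an effect of MYCN and any other difference of that line cannot be told apart. BE(2)C and SH-SY5Y are each a clone of a parent tumour line. The labels number the libraries without saying whether they are separate cultures, and p-values measure only the spread between them, which may be technical.

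Axon guidance genes encode the cues that attract or repel growth cones and migrating neural crest cells. Semaphorins signal through plexins, and most secreted class 3 semaphorins first need a neuropilin, the subunit that holds the ligand. Ephrins are themselves bound to membranes, so EPH receptors read them on touching cells, and the cell that bears the ephrin can be signalled to in turn. Netrins attract through DCC and repel through UNC5 proteins, and SLITs repel through ROBO receptors. In the sympathetic lineage, semaphorin and neuropilin signals are known to help place neural crest cells and early ganglia.

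Levels are given as scaled TPM: length-normalised transcript abundance restricted to genes and brought to a common scale between libraries. TPM is per transcript length, so levels of different genes can be set side by side. No source used here says how transcripts were joined into genes, and whether sums or values near 0 depend on that was not tested. Differences between lines are log2 fold changes of scaled TPM plus 1 from limma, with their SE, and a gene is called where the p-value adjusted over 13076 tested genes is under 0.05. These fold changes understate the change of genes with low values. The depth of the libraries is unknown, and a value of 0 is given as listed.

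As a check of the labels, MYCN lay between 4803 and 6804 scaled TPM over the 6 Kelly and BE(2)C libraries and between 26.5 and 28.4 over the SH-SY5Y libraries. Of 8 markers of sympathetic neuroblasts, 8 were at 1 or more throughout Kelly and BE(2)C and 7 throughout SH-SY5Y, where TH was at 0.346 or less. The summed markers of other cell types reached at most 10.4 for glia, 4.75 for leukocytes, 2.31 for epithelia and 0.917 for endothelium; FABP7 and CD3E were listed at 0 in all 9 libraries. Fibroblast and mesenchymal markers summed to 45.03 to 54.3 (Kelly), 52.5 to 94.5 (BE(2)C) and 62.9 to 70.2 (SH-SY5Y), most of it PDGFRB, and their part in the results was not tested. Synthetic spike-in RNA held 83.7% to 90.7% of the deposited totals. Over 61 abundant spike-ins, the largest shift between line means was 1.42 on the log2 scale between Kelly and SH-SY5Y, 1.24 between Kelly and BE(2)C and 0.18 between BE(2)C and SH-SY5Y. For Kelly differences within those sizes, the libraries and the line cannot be told apart. That limit applies to every such Kelly difference below, also where it is not repeated. Mitochondrial genes held 24.5% to 35.3% of the gene total for BE(2)C and 16.5% to 19.8% for the other lines.

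Of the 68 members, 57 reached 1 scaled TPM in at least 3 libraries and were tested, and 34 reached it in all 9. The 11 members under the filter were SEMA3B, SEMA5B, SEMA6B, EPHA1, EPHA3, EPHA4, EPHA5, EPHB6, DCC, ROBO3 and ROBO4, with EPHA3 and EPHB6 listed at 0 throughout. By line, 52 members were at 1 or more in all 3 libraries of Kelly, 44 of SH-SY5Y and 42 of BE(2)C. By the mean over the 3 lines, the most abundant were the netrin receptor gene UNC5B, the ligand gene SLIT3 and the plexin genes PLXNA1 and PLXNB2.

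**Figure D1:**
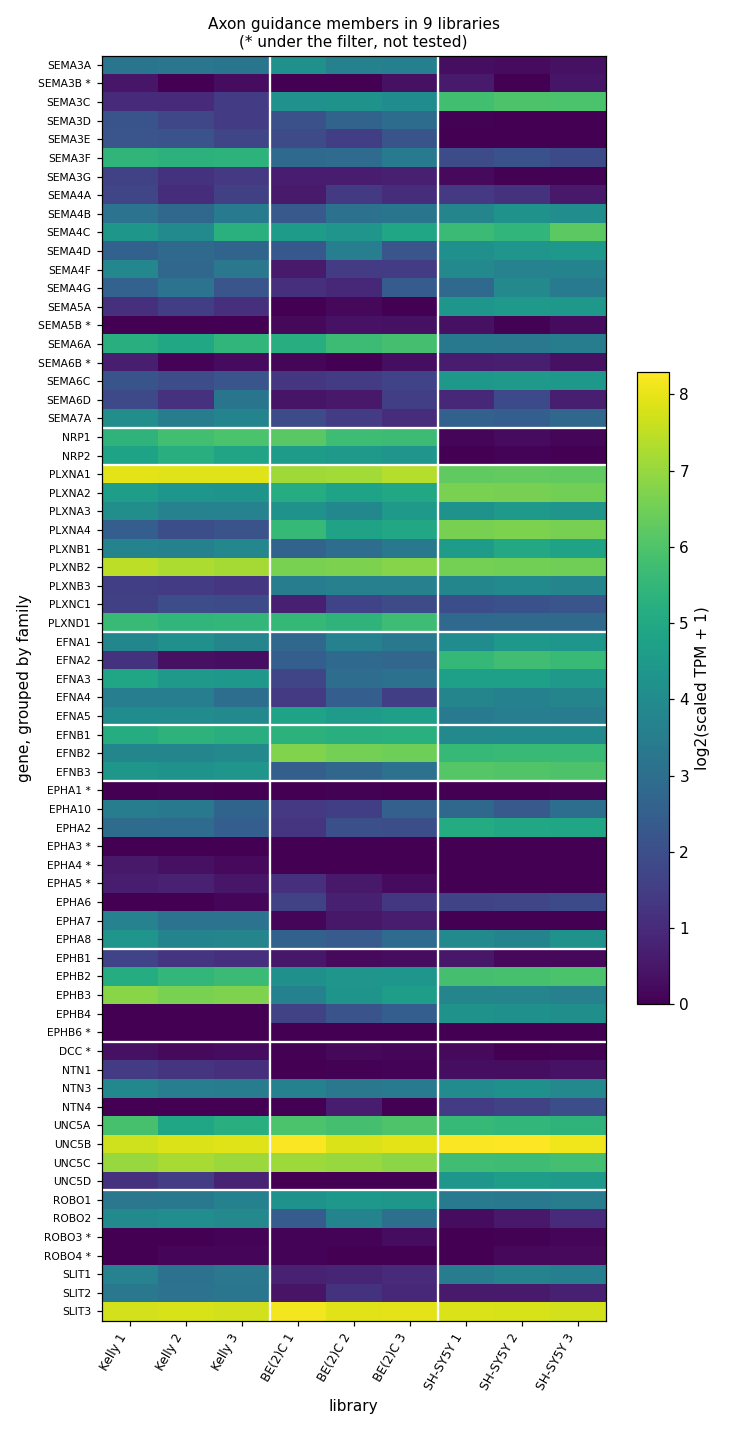
Levels of all 68 members (rows, grouped by family; an asterisk marks the 11 under the filter) in the 9 libraries (columns), as log2 of scaled TPM plus 1. NRP1, NRP2, SEMA3A, SEMA3D and SEMA3E are at their lowest in the 3 SH-SY5Y libraries, while UNC5B, SLIT3, PLXNA1 and PLXNB2 are high in all 9.

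Between BE(2)C and SH-SY5Y, 17 members were higher in BE(2)C, 25 were lower and 15 were not called. That is 73.7% of the tested members, where 59.4% of all genes were called, 28.6% higher and 30.7% lower. Scaling only to library totals without mitochondrial genes gave 16 higher and 30 lower. Library totals with those genes in gave 16 and 32. Under these 2 settings, 36.3% and 23.6% of all called genes were higher. Against SH-SY5Y, Kelly had 21 members higher and 21 lower, or 73.7%, where 55.3% of all genes were called, 28.1% higher and 27.2% lower. Of these 42 calls, 14 lay within the largest spike-in shift, among them those of EFNB1, UNC5C, SEMA7A and EPHB2. Against BE(2)C, Kelly had 26 members higher and 14 lower, or 70.2%, where 52.5% of all genes were called, 27.9% higher and 24.6% lower. Scaling only to totals without mitochondrial genes gave 27 and 11, where 58.1% of all called genes were higher. In the main scaling, 21 of 40 calls lay within the shift.

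These shares say nothing of the members as a group, since 10 tested members reached 1 in all libraries of 1 line alone, and the comparisons share libraries. The median log2 fold change of the tested members was -0.31 for BE(2)C against SH-SY5Y (all genes -0.04), -0.155 for Kelly against SH-SY5Y (all genes -0.005) and 0.44 for Kelly against BE(2)C (all genes 0.025). The split of the calls moved with the processing. Values as deposited keep spike-ins in the total, so gene values are smaller against the same filter and pseudocount. There 10279 genes were tested, and 4, 9 and 8 of the members called above were not, in order of the comparisons. On these values 13 members were higher and 29 lower in the first comparison, 12 and 30 in the second and 14 and 13 in the third. Over all genes called on these values, 18.2%, 12.1% and 40.1% were higher in that order. With library totals only, the third gave 29 and 8, where 74.3% of all called genes were higher. The order of the lines differed from gene to gene: 16 members were called above both other lines in SH-SY5Y, 12 in Kelly and 6 in BE(2)C. Such counts were not made over all genes, so whether they are particular to the members was not tested. Some of them rest on calls that ended under other settings. These include SEMA3A, SEMA3D, NRP2 and ROBO2 between Kelly and BE(2)C, and SLIT3 between BE(2)C and SH-SY5Y.

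**Figure D2:**
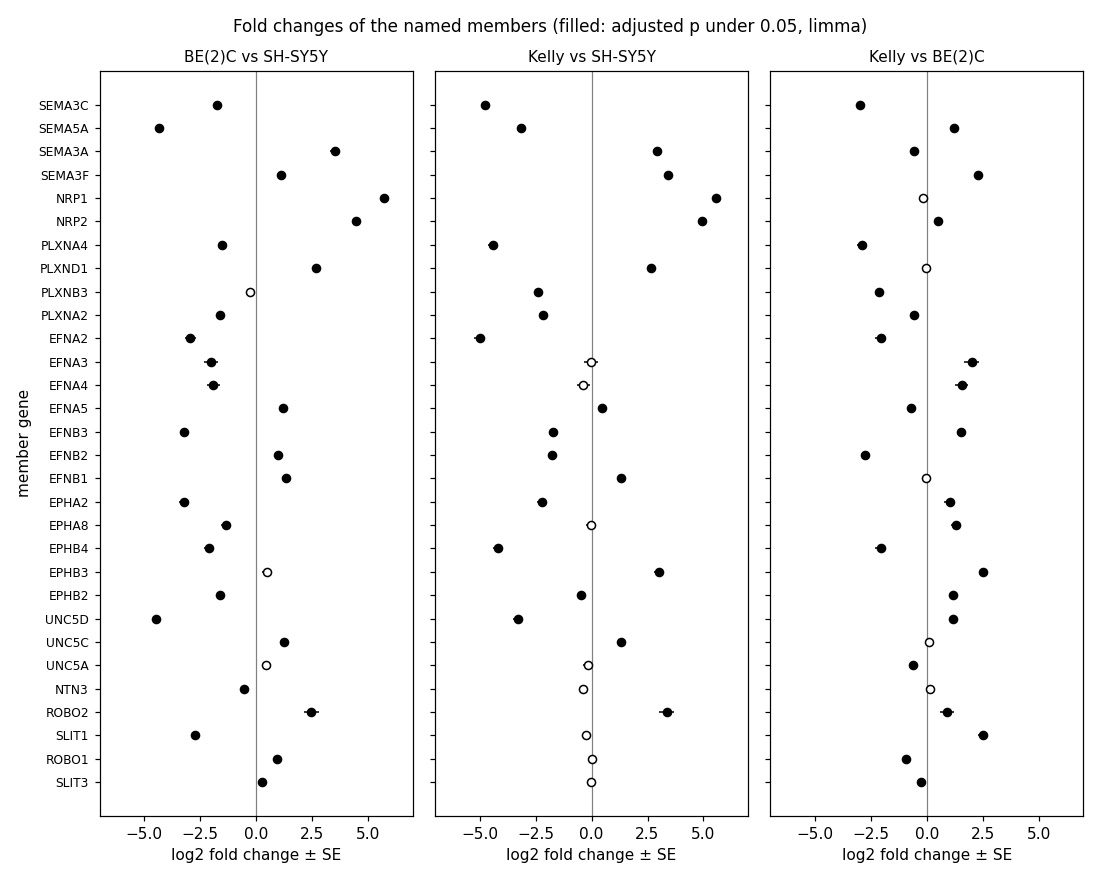
Log2 fold changes (points, with SE as horizontal lines) of the members chosen by the naming rule, 1 panel per comparison; filled points have an adjusted p under 0.05. NRP1 and NRP2 lie far to the right in both comparisons with SH-SY5Y and near 0 between Kelly and BE(2)C, and EFNA2, SEMA3C and PLXNA4 lie to the left in both comparisons with SH-SY5Y.

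The neuropilins, the subunits that hold class 3 semaphorins, set SH-SY5Y apart from both MYCN-amplified lines. NRP1 (chr10:33177492-33336262, minus strand; coordinates of genes are GENCODE's on GRCh38) stood at 41.5, 54.4 and 60.5 across the Kelly libraries, 71.4, 52.1 and 50.9 across BE(2)C and 0.0850, 0.178 and 0.0985 across SH-SY5Y. Kelly and BE(2)C overlapped with each other, and all 6 of their libraries lay far above the 3 of SH-SY5Y. The log2 fold change against SH-SY5Y was 5.71 ± 0.19 for BE(2)C and 5.55 ± 0.19 for Kelly (limma, adjusted p = 3.04e-08 and 3.56e-08). NRP2 (chr2:205681990-205798133, plus strand) stood at 27.1, 36.4 and 27.8 across the Kelly libraries, 23.1, 21.3 and 19.2 across BE(2)C and 0, 0.0606 and 0 across SH-SY5Y. Every Kelly library lay above every BE(2)C library, and all 6 far above SH-SY5Y, by 4.44 ± 0.17 for BE(2)C and 4.93 ± 0.17 for Kelly (limma, adjusted p = 6.38e-08 and 3.68e-08). The difference of 0.49 ± 0.17 between Kelly and BE(2)C passed narrowly (limma, adjusted p = 0.0328) and did not pass without Kelly replicate 2, BE(2)C replicate 2 or BE(2)C replicate 3, with adjusted p from 0.0715 to 0.12.

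The stretch before the RefSeq start of NRP2 is shown because the gene was near 0 in 1 line and high in the others. It is chr2:205682251-205682500 on the plus strand, the 250 bases before the RefSeq start (GRCh38.p14). The GENCODE gene printed above begins further upstream, so the window lies inside that longer gene. Capitals mark the GC box motif GGGCGG and its other-strand form CCGCCC, which occurs here in an overlapping pair. The window holds 29 CpG pairs, where the median over all promoters is 11. A GC box was found for 72.4% of the 58 members with an entry in RefSeq's promoter table and for 42.6% of all 35116 promoters. Members were counted with 1 entry per gene and all promoters by every entry, so these shares are not of like sets.
NRP2: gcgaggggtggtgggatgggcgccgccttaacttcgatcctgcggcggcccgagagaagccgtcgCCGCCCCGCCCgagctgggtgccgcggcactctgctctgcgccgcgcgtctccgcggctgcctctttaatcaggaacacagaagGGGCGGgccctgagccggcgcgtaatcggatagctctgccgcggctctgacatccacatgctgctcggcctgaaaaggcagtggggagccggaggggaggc

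The class 3 semaphorins, the secreted ligands of these receptors, did not move as a block. SEMA3C (chr7:80742538-80922359, minus strand) stood at 1.04, 1.03 and 1.70 across the Kelly libraries, 17.5, 18.1 and 15.2 across BE(2)C and 53.8, 61.9 and 61.2 across SH-SY5Y. The 3 lines did not overlap, with SH-SY5Y highest and Kelly lowest, and the fold change against SH-SY5Y was -1.74 ± 0.16 for BE(2)C and -4.74 ± 0.16 for Kelly (limma, adjusted p = 1.47e-05 and 3.68e-08). SEMA3A (chr7:83955777-84492724, minus strand), the founding repellent of the class, ran the other way, at 8.34, 8.52 and 8.44 across the Kelly libraries, 16.9, 11.6 and 11.1 across BE(2)C and 0.242, 0.172 and 0.294 across SH-SY5Y. SH-SY5Y was lowest without overlap, by 3.50 ± 0.19 against BE(2)C and 2.93 ± 0.19 against Kelly (limma, adjusted p = 4.68e-07 and 1.63e-06). The smaller difference between Kelly and BE(2)C (-0.57 ± 0.19; limma, adjusted p = 0.0306) was lost without Kelly replicate 1, Kelly replicate 2, Kelly replicate 3 or BE(2)C replicate 1 and with library totals only (adjusted p = 0.324). SEMA3F (chr3:50155045-50189075, plus strand), a ligand that prefers NRP2, stood at 41.7, 38.9 and 40.4 across the Kelly libraries, 6.15, 6.47 and 9.96 across BE(2)C and 2.69, 3.31 and 2.62 across SH-SY5Y. The lines did not overlap, and Kelly lay above SH-SY5Y by 3.42 ± 0.19 and above BE(2)C by 2.30 ± 0.19 (limma, adjusted p = 6.20e-07 and 9.91e-06).

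The low members SEMA3D, SEMA3E and SEMA3G were called below both other lines in SH-SY5Y, as SEMA3A was. SEMA3D averaged 2.53 ± 0.827 (SD, n = 3) for Kelly and 5.01 ± 1.73 for BE(2)C, and was listed at 0.0398, 0 and 0 for SH-SY5Y. SEMA3E averaged 3.08 ± 0.628 and 2.71 ± 0.753, and was listed at 0.00126, 0 and 0. SEMA3G averaged 1.67 ± 0.406, 0.599 ± 0.0476 and 0.0773 ± 0.0651, and its call between BE(2)C and SH-SY5Y ended without SH-SY5Y replicate 2 or SH-SY5Y replicate 3. Summed over the 7 genes, class 3 levels were 57.5 ± 2.67 for Kelly, 46.1 ± 1.82 for BE(2)C and 62.5 ± 4.37 for SH-SY5Y. SEMA3F made 70.1% of the Kelly sum, while SEMA3C made 36.8% of the BE(2)C sum and 94.4% of the SH-SY5Y sum.

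**Figure D3:**
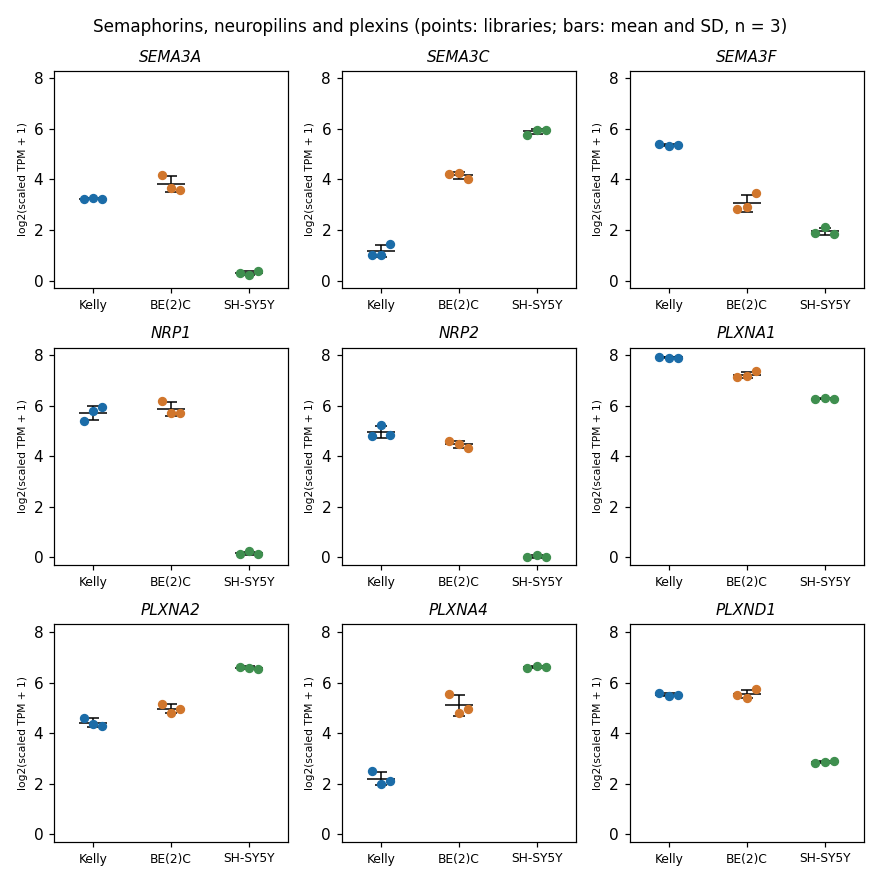
Levels of 9 semaphorin, neuropilin and plexin genes in each library (points) with the line mean and SD (bars, n = 3), as log2 of scaled TPM plus 1. SH-SY5Y has NRP1 and NRP2 near 0 and its SEMA3C, PLXNA2 and PLXNA4 above both other lines; PLXNA1 is highest for Kelly and lowest for SH-SY5Y.

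Among the other semaphorins, SEMA5A (chr5:9035026-9546075, minus strand), a transmembrane ligand, stood at 1.16, 1.93 and 1.22 across the Kelly libraries, 0.0194, 0.134 and 0 across BE(2)C and 19.6, 21.4 and 20.4 across SH-SY5Y. The lines did not overlap, and BE(2)C lay under SH-SY5Y by -4.35 ± 0.17 and Kelly by -3.15 ± 0.17 (limma, adjusted p = 9.10e-08 and 6.53e-07). SEMA6C had the same order of lines, with 20.5 ± 0.360 for SH-SY5Y, 3.29 ± 0.370 for Kelly and 1.82 ± 0.348 for BE(2)C. SEMA6A, a transmembrane ligand of A-type plexins, was lowest for SH-SY5Y instead, at 9.49 ± 0.665 against 36.6 ± 6.15 for Kelly and 47.2 ± 11.2 for BE(2)C. SEMA7A, tethered to the membrane by a lipid anchor, was highest for Kelly at 12.9 ± 2.88, against 1.85 ± 0.814 for BE(2)C and 5.15 ± 0.637 for SH-SY5Y.

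Class 4 semaphorins, many of them ligands of B-type plexins, summed to 113 ± 16.3 for SH-SY5Y, 53.9 ± 12.8 for Kelly and 40.8 ± 7.49 for BE(2)C. SEMA4B, SEMA4C and SEMA4D were called above both other lines in SH-SY5Y, with log2 fold changes of -1.14, -1.18 and -1.65 for BE(2)C and -0.90, -1.25 and -1.60 for Kelly. The Kelly differences of SEMA4B and SEMA4C were less than the spike-in shift. The SEMA4B call for Kelly ended without Kelly replicate 2, SH-SY5Y replicate 2 or SH-SY5Y replicate 3. SEMA4F was lowest for BE(2)C, at 1.33 ± 0.693 against 9.24 ± 3.88 for Kelly and 12.7 ± 1.03 for SH-SY5Y. SEMA4G was called only between BE(2)C and SH-SY5Y (-1.91 ± 0.44; limma, adjusted p = 0.0047), and SEMA4A and SEMA6D in no comparison. Of 17 tested semaphorins, 6 were higher and 9 lower for BE(2)C against SH-SY5Y, 7 and 6 for Kelly against SH-SY5Y, and 6 and 3 for Kelly against BE(2)C. The shares called were 88.2%, 76.5% and 52.9%, beside 59.4%, 55.3% and 52.5% of all genes, so the last was at the background.

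A-type plexins, which carry the semaphorin signal into the cell, were present throughout in different proportions. PLXNA2 (chr1:208022242-208244320, minus strand) stood at 23.3, 19.4 and 18.5 across the Kelly libraries, 34.2, 26.8 and 30.3 across BE(2)C and 98.2, 95.6 and 91.3 across SH-SY5Y. The lines did not overlap, and fold changes against SH-SY5Y were -1.62 ± 0.12 for BE(2)C and -2.17 ± 0.12 for Kelly (limma, adjusted p = 3.20e-06 and 5.51e-07). PLXNA4 (chr7:132123332-132648688, minus strand) stood at 4.61, 2.96 and 3.35 across the Kelly libraries, 46.2, 26.6 and 30.1 across BE(2)C and 94.6, 99.6 and 96.5 across SH-SY5Y. Kelly was lowest without overlap, under SH-SY5Y by -4.42 ± 0.21 and under BE(2)C by -2.90 ± 0.21 (limma, adjusted p = 2.24e-07 and 4.27e-06). PLXNA1, the most abundant of the group, had the opposite order: 239.5 ± 4.47 for Kelly, 148 ± 13.3 for BE(2)C and 76.96 ± 1.66 for SH-SY5Y. The summed A-type level differed less than its parts, at 277 ± 10.3, 229.9 ± 18.7 and 288 ± 6.64 in that order. PLXNA1 made 86.5% of the sum for Kelly and 64.2% for BE(2)C, while PLXNA4 led for SH-SY5Y with 33.6%.

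PLXND1 (chr3:129555175-129606818, minus strand), which SEMA3E can bind without a neuropilin, stood at 46.96, 43.3 and 43.9 across the Kelly libraries, 44.6, 40.9 and 51.98 across BE(2)C and 6.08, 6.33 and 6.36 across SH-SY5Y. Kelly and BE(2)C overlapped and lay above SH-SY5Y, by 2.66 ± 0.11 and 2.68 ± 0.11 (limma, adjusted p = 1.30e-07 and 1.12e-07). PLXNB3 (chrX:153764196-153779346, plus strand) stood at 1.88, 1.77 and 1.48 across the Kelly libraries, 10.2, 11.2 and 11.1 across BE(2)C and 12.98, 14.2 and 12.8 across SH-SY5Y. Kelly was lowest without overlap, under SH-SY5Y by -2.41 ± 0.15 (limma, adjusted p = 1.25e-06). BE(2)C also lay under every SH-SY5Y library, a difference of -0.28 ± 0.15 that did not pass (limma, adjusted p = 0.133) but did with library totals only (-0.70, adjusted p = 0.00377).

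Of the other plexins, PLXNB2 was high throughout, at 158 ± 17.2 for Kelly, 102 ± 6.29 for BE(2)C and 91.3 ± 2.71 for SH-SY5Y, and Kelly was called above both other lines by less than the spike-in shift. PLXNB1 was called highest in SH-SY5Y and lowest in BE(2)C, at 26.9 ± 3.81 and 7.11 ± 1.96. Its Kelly differences from both lines were less than the spike-in shift. PLXNA3 was called only for Kelly against SH-SY5Y (-0.54 ± 0.19; limma, adjusted p = 0.0373), a call that ended without Kelly replicate 2, Kelly replicate 3, SH-SY5Y replicate 1, SH-SY5Y replicate 2 or SH-SY5Y replicate 3, and PLXNC1 in no comparison.

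Ephrin-A ligands, held to the membrane by a lipid anchor, summed to 113 ± 5.86 scaled TPM for SH-SY5Y, 62.6 ± 6.93 for Kelly and 47.4 ± 5.38 for BE(2)C. EFNA2 (chr19:1286154-1300237, plus strand) stood at 1.31, 0.281 and 0.244 across the Kelly libraries, 4.56, 6.06 and 5.71 across BE(2)C and 45.1, 52.3 and 48.3 across SH-SY5Y. The lines did not overlap, and fold changes against SH-SY5Y were -2.95 ± 0.25 for BE(2)C and -5.004 ± 0.25 for Kelly (limma, adjusted p = 8.48e-06 and 3.38e-07). EFNA5 (chr5:107376889-107670895, minus strand), a ligand known from topographic maps in the brain, stood at 15.4, 14.9 and 14.6 across the Kelly libraries, 26.9, 22.9 and 24.6 across BE(2)C and 10.04, 10.7 and 10.4 across SH-SY5Y. BE(2)C was highest without overlap, above SH-SY5Y by 1.18 ± 0.12 (limma, adjusted p = 2.20e-05). The Kelly difference from SH-SY5Y, 0.49 ± 0.12 (limma, adjusted p = 0.00566), was 0.36 with library totals only (adjusted p = 0.0673) and -0.12 on values as deposited (adjusted p = 0.385).

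EFNA3, EFNA4 and EFNA1 were called lower in BE(2)C than in either other line. EFNA3 (chr1:155078872-155087538, plus strand) stood at 28.3, 21.3 and 20.7 across the Kelly libraries, 2.30, 6.75 and 7.69 across BE(2)C and 24.9, 24.9 and 21.2 across SH-SY5Y. Kelly and SH-SY5Y overlapped (-0.03 ± 0.33; limma, adjusted p = 0.958), and BE(2)C lay under SH-SY5Y by -2.02 ± 0.33 (limma, adjusted p = 5.93e-04). EFNA4 (chr1:155063731-155069553, plus strand) stood at 10.8, 10.7 and 6.94 across the Kelly libraries, 1.68, 4.55 and 1.91 across BE(2)C and 12.8, 11.5 and 12.6 across SH-SY5Y. BE(2)C lay under every library of the other lines, by -1.92 ± 0.29 against SH-SY5Y (limma, adjusted p = 3.62e-04). EFNA1 averaged 8.83 ± 2.80 for BE(2)C, 14.1 ± 2.29 for Kelly and 18.4 ± 2.72 for SH-SY5Y, and its call between Kelly and BE(2)C ended without Kelly replicate 1, Kelly replicate 2, Kelly replicate 3, BE(2)C replicate 1, BE(2)C replicate 3, SH-SY5Y replicate 2 or SH-SY5Y replicate 3. Over values as deposited, the Kelly differences from SH-SY5Y were called for EFNA3 (-0.56) and EFNA4 (-0.66). The median of all tested genes was -0.546 there, so the EFNA3 value was near that of genes at large.

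Ephrin-B ligands span the membrane, and each of the 3 had its own order of lines. EFNB2 (chr13:106489731-106535662, minus strand) stood at 12.97, 12.7 and 13.9 across the Kelly libraries, 104, 92.98 and 86.8 across BE(2)C and 46.1, 48.4 and 47.4 across SH-SY5Y. BE(2)C was highest and Kelly lowest without overlap, with fold changes against SH-SY5Y of 0.98 ± 0.09 and -1.77 ± 0.09 (limma, adjusted p = 1.49e-05 and 4.02e-07). EFNB3 (chr17:7705202-7711378, plus strand) stood at 20.1, 18.1 and 18.97 across the Kelly libraries, 4.73, 5.68 and 7.72 across BE(2)C and 68.2, 64.8 and 62.1 across SH-SY5Y. SH-SY5Y was highest and BE(2)C lowest, with fold changes against SH-SY5Y of -3.25 ± 0.16 for BE(2)C and -1.72 ± 0.16 for Kelly (limma, adjusted p = 2.30e-07 and 1.52e-05). EFNB1 (chrX:68828997-68842147, plus strand) stood at 34.5, 40.1 and 35.7 across the Kelly libraries, 38.8, 36.1 and 37.6 across BE(2)C and 13.98, 14.2 and 14.5 across SH-SY5Y. Kelly and BE(2)C overlapped above SH-SY5Y, by 1.31 ± 0.09 and 1.34 ± 0.09 (limma, adjusted p = 3.63e-06 and 2.72e-06). The Kelly difference was less than the spike-in shift.

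**Figure D4:**
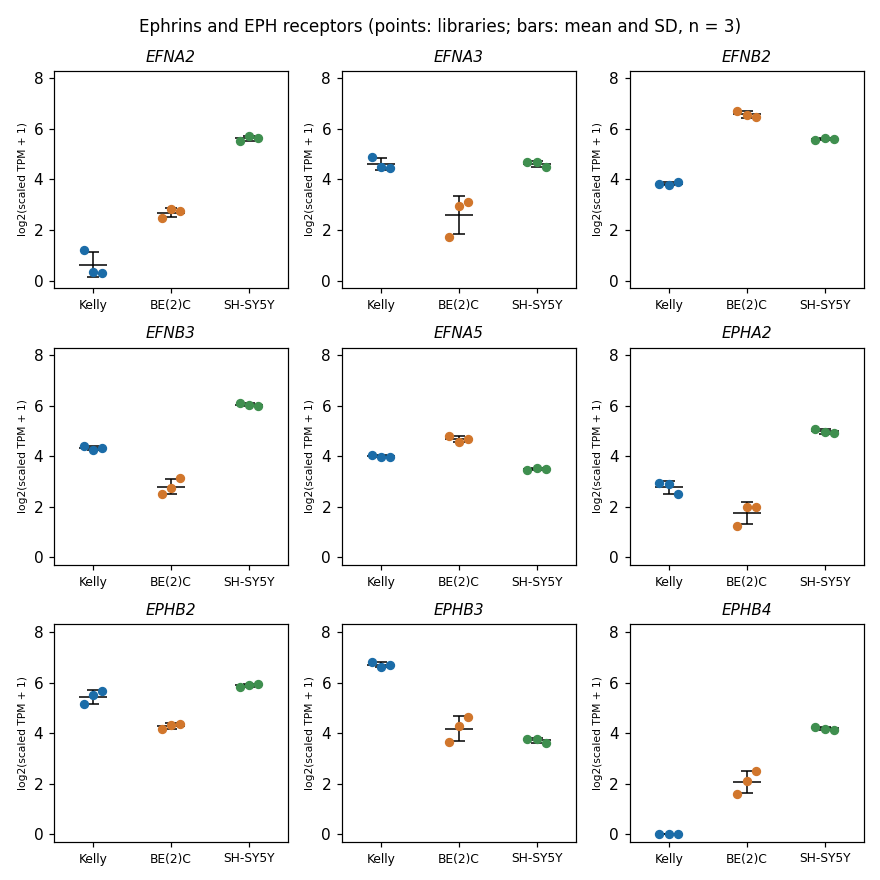
Levels of 9 ephrin and EPH receptor genes in each library (points) with the line mean and SD (bars, n = 3), as log2 of scaled TPM plus 1. EFNB2 is highest for BE(2)C, EPHB3 for Kelly, and EFNA2, EFNB3, EPHA2 and EPHB4 for SH-SY5Y; EPHB4 is listed at 0 in all 3 Kelly libraries.

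EPHA receptors, kinases that mainly read ephrin-A ligands, summed to 53.7 ± 4.05 scaled TPM for SH-SY5Y, 39.01 ± 8.97 for Kelly and 12.9 ± 3.22 for BE(2)C over 9 genes. EPHA2 (chr1:16124337-16156087, minus strand) stood at 6.67, 6.39 and 4.61 across the Kelly libraries, 1.38, 3.04 and 2.98 across BE(2)C and 33.05, 30.3 and 29.01 across SH-SY5Y. The lines did not overlap, and fold changes against SH-SY5Y were -3.24 ± 0.24 for BE(2)C and -2.22 ± 0.24 for Kelly (limma, adjusted p = 3.25e-06 and 4.39e-05). EPHA8 (chr1:22563564-22603594, plus strand) stood at 19.03, 12.5 and 12.6 across the Kelly libraries, 4.98, 4.23 and 6.46 across BE(2)C and 14.5, 12.4 and 17.9 across SH-SY5Y. Kelly and SH-SY5Y overlapped, and BE(2)C lay under both, by -1.36 ± 0.22 against SH-SY5Y (limma, adjusted p = 6.13e-04). EPHA7 averaged 9.19 ± 2.17 for Kelly and 0.374 ± 0.245 for BE(2)C, a difference of 2.89 ± 0.20 (limma, adjusted p = 4.23e-06), and was listed at 0 throughout SH-SY5Y. EPHA10 was called only between Kelly and BE(2)C, and EPHA6, at 2.63 or less everywhere, was called below both other lines in Kelly.

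EPHB receptors mainly read ephrin-B ligands and summed to 148 ± 4.03 for Kelly, 39.96 ± 8.63 for BE(2)C and 88.2 ± 0.737 for SH-SY5Y. EPHB3 (chr3:184561784-184582409, plus strand), 70.1% of the Kelly sum, stood at 112, 98.2 and 101 across the Kelly libraries, 11.4, 18.5 and 23.8 across BE(2)C and 12.6, 12.8 and 11.1 across SH-SY5Y. Kelly lay far above the others, by 2.99 ± 0.22 against SH-SY5Y and 2.53 ± 0.22 against BE(2)C (limma, adjusted p = 3.77e-06 and 1.39e-05). BE(2)C and SH-SY5Y overlapped (0.47 ± 0.22; limma, adjusted p = 0.0943), but a call arose without BE(2)C replicate 1 (0.74, adjusted p = 0.00185). EPHB2 (chr1:22710839-22921500, plus strand) stood at 34.2, 44.5 and 49.5 across the Kelly libraries, 16.96, 19.1 and 19.4 across BE(2)C and 56.2, 58.5 and 61.2 across SH-SY5Y. SH-SY5Y was highest and BE(2)C lowest without overlap, with fold changes against SH-SY5Y of -1.62 ± 0.13 for BE(2)C and -0.46 ± 0.13 for Kelly (limma, adjusted p = 7.43e-06 and 0.0156). The Kelly call ended without SH-SY5Y replicate 3 (adjusted p = 0.0533).

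EPHB4 (chr7:100802565-100827521, minus strand), the classical partner of EFNB2 in blood vessels, was listed at 0 in all 3 Kelly libraries. It stood at 2.03, 3.34 and 4.60 across BE(2)C and 18.2, 16.99 and 16.4 across SH-SY5Y, without overlap and with a fold change of -2.12 ± 0.22 (limma, adjusted p = 3.66e-05). EPHB1 was near the filter, at 1.57 ± 0.504 for Kelly, 0.273 ± 0.145 for BE(2)C and 0.231 ± 0.179 for SH-SY5Y. In BE(2)C against SH-SY5Y, 2 of 5 tested EPHA and 2 of 4 EPHB receptors were called lower, where 30.7% of all genes were. For Kelly against SH-SY5Y, 1 EPHA receptor was called higher and 2 lower, and 2 EPHB receptors higher and 2 lower. Of all genes, 28.1% were called higher there and 27.2% lower. For Kelly against BE(2)C, 4 EPHA and 3 EPHB receptors were called higher, and 1 of each lower, where 27.9% of all genes were called higher and 24.6% lower.

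**Figure D5:**
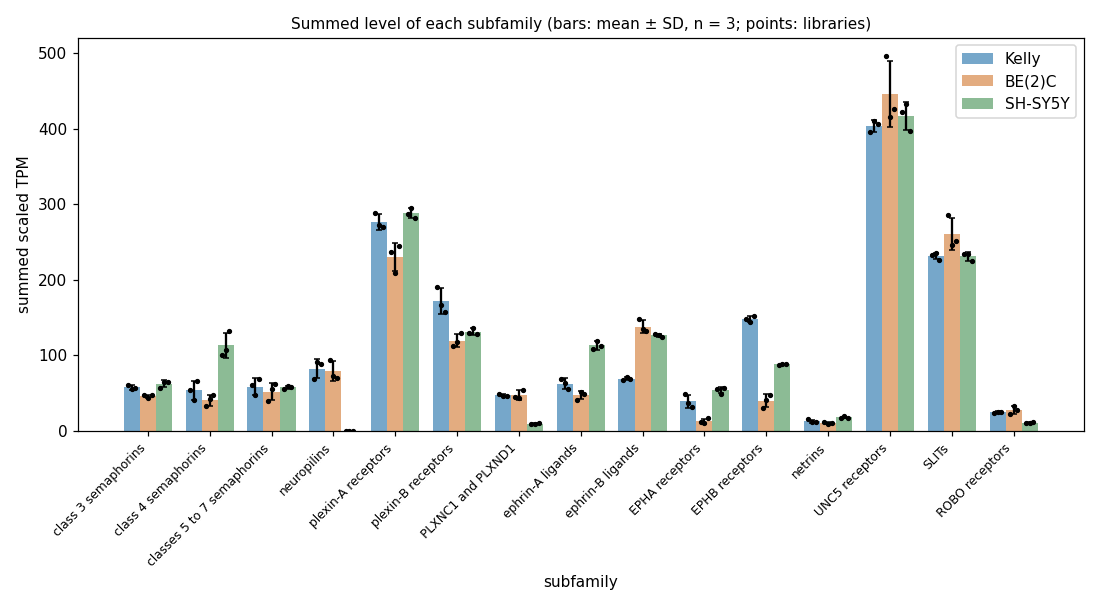
Summed scaled TPM of each subfamily (bars: mean ± SD, n = 3; black points: libraries; axis from 0) for Kelly, BE(2)C and SH-SY5Y. Neuropilins sum to 82.5, 79.3 and 0.141, while the UNC5 and SLIT sums differ far less between the lines.

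UNC5 receptors differed little in their sum, at 404 ± 7.74 scaled TPM for Kelly, 446 ± 43.5 for BE(2)C and 417 ± 18.7 for SH-SY5Y. UNC5B led in each line, at 225 ± 16.3, 259 ± 36.8 and 298 ± 17.9, and was called only for Kelly against SH-SY5Y (-0.41 ± 0.10; limma, adjusted p = 0.00817). That difference was less than the spike-in shift. UNC5C (chr4:95162504-95549206, minus strand) stood at 129, 148 and 132 across the Kelly libraries, 135, 128 and 116 across BE(2)C and 52.95, 51.96 and 55.5 across SH-SY5Y. Kelly and BE(2)C overlapped above SH-SY5Y, by 1.33 ± 0.08 and 1.22 ± 0.08 (limma, adjusted p = 1.14e-06 and 1.71e-06). The Kelly difference was less than the spike-in shift. UNC5D ran the other way, at 19.5, 23.3 and 21.03 across SH-SY5Y and 1.26, 1.82 and 0.781 across Kelly, and was listed at 0 throughout BE(2)C. Kelly lay under SH-SY5Y by -3.31 ± 0.20 (limma, adjusted p = 1.01e-06).

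UNC5A (chr5:176810477-176880898, plus strand) stood at 58.2, 29.2 and 35.8 across the Kelly libraries, 59.97, 56.6 and 63.9 across BE(2)C and 46.2, 44.5 and 41.4 across SH-SY5Y. Kelly replicate 1 overlapped with BE(2)C, and the call between these lines (-0.60 ± 0.21; limma, adjusted p = 0.0365) ended without Kelly replicate 2, Kelly replicate 3, BE(2)C replicate 1, BE(2)C replicate 2 or BE(2)C replicate 3, with adjusted p from 0.0618 to 0.114. For BE(2)C against SH-SY5Y (0.44 ± 0.21; limma, adjusted p = 0.0943), a call arose without Kelly replicate 1 (adjusted p = 0.00539) or 2 (0.044), although the sign turned with library totals only (-0.01). For Kelly against SH-SY5Y (-0.15 ± 0.21; limma, adjusted p = 0.556), a call arose without Kelly replicate 1 (-0.43, adjusted p = 0.0128).

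DCC, the attractive netrin receptor, was under the filter, at 0.299 or less in every library. Of the ligands, NTN3 (chr16:2471499-2474145, plus strand) stood at 13.5, 10.7 and 10.5 across the Kelly libraries, 11.6, 9.09 and 9.95 across BE(2)C and 15.2, 16.98 and 13.9 across SH-SY5Y. SH-SY5Y lay above both other lines without overlap, but only the difference from BE(2)C was called (-0.55 ± 0.16; limma, adjusted p = 0.0143), and that ended without SH-SY5Y replicate 2 (adjusted p = 0.0583). The Kelly difference (-0.38 ± 0.16; limma, adjusted p = 0.0662) was called without Kelly replicate 1 (adjusted p = 0.0339). NTN1, the founding netrin, was at 1.74 or less and NTN4 at 3.005 or less, so the netrins summed to 13.04 ± 1.94 for Kelly, 10.4 ± 1.01 for BE(2)C and 17.9 ± 1.16 for SH-SY5Y.

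SLIT3 (chr5:168661733-169301129, minus strand), the SLIT with the highest level, stood at 212, 219 and 209 across the Kelly libraries, 284, 244 and 249 across BE(2)C and 224, 222 and 213 across SH-SY5Y. BE(2)C lay above both other lines, by 0.23 ± 0.07 against SH-SY5Y (limma, adjusted p = 0.0143), but the direction depends on the scaling: -0.23 with library totals only, -0.33 on values as deposited (adjusted p = 0.0485) and -0.10 with quantile normalization. The call also ended without SH-SY5Y replicate 3 (adjusted p = 0.0539). SLIT1 (chr10:96998038-97185920, minus strand) stood at 11.7, 7.76 and 8.71 across the Kelly libraries, 0.689, 0.825 and 0.971 across BE(2)C and 10.1, 12.1 and 10.99 across SH-SY5Y. Kelly and SH-SY5Y overlapped, and BE(2)C lay far under both, by -2.72 ± 0.19 against SH-SY5Y (limma, adjusted p = 2.25e-06). SLIT2 was highest for Kelly, at 8.55 ± 0.596 against 0.865 ± 0.489 for BE(2)C and 0.558 ± 0.0716 for SH-SY5Y (2.61 ± 0.21 against SH-SY5Y; limma, adjusted p = 6.88e-06). BE(2)C thus had SLIT1 and SLIT2 at 1.34 or less beside high SLIT3.

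ROBO receptors together were far less abundant than SLIT3, with sums of 24.7 ± 1.19 for Kelly, 27.7 ± 5.23 for BE(2)C and 10.4 ± 0.774 for SH-SY5Y. ROBO2 (chr3:75906695-77649964, plus strand) stood at 14.7, 15.8 and 13.9 across the Kelly libraries, 4.32, 12.4 and 7.40 across BE(2)C and 0.213, 0.491 and 1.004 across SH-SY5Y. The lines did not overlap, and both amplified lines lay above SH-SY5Y, by 3.36 ± 0.33 for Kelly and 2.45 ± 0.33 for BE(2)C (limma, adjusted p = 2.39e-05 and 1.59e-04). The call between Kelly and BE(2)C (0.91 ± 0.33; limma, adjusted p = 0.042) ended without Kelly replicate 1, Kelly replicate 2, Kelly replicate 3, BE(2)C replicate 1, BE(2)C replicate 3 or SH-SY5Y replicate 2, with adjusted p from 0.0554 to 0.125. ROBO1 (chr3:78597240-79767815, minus strand) stood at 8.69, 9.22 and 11.6 across the Kelly libraries, 18.1, 20.6 and 19.97 across BE(2)C and 9.82, 9.29 and 10.1 across SH-SY5Y. BE(2)C was highest without overlap, by 0.94 ± 0.14 against SH-SY5Y (limma, adjusted p = 4.23e-04). ROBO3 and ROBO4 were at 0.210 or less.

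The series concerns let-7, the microRNA family that silences transcripts through short matches in their 3' untranslated regions, so those regions were searched for CTACCTC, the 7 bases that pair with bases 2 to 8 of let-7. The mature let-7a (RefSeq, GRCh38.p14, chr9:94175962-94175983, plus strand) is shown first with that seed in capitals. The longest 3' untranslated region of each gene in GENCODE was read on the transcript's strand. Other transcripts of a gene need not hold that region, and no levels of single transcripts were used here. A match was found in 14 of 68 members (20.6%) and in 9.59% of 19047 genes, with median lengths of 2085 and 1089 bases. Matches of 6 members whose levels differed between the lines are shown in 30 bases each, with the match in capitals. They lie at chr2:205778454-205778483 (NRP2, plus strand), chr3:50188758-50188787 (SEMA3F, plus strand), chr3:129555893-129555922 (PLXND1, minus strand), chr1:208023972-208024001 (PLXNA2, minus strand), chr7:132129441-132129470 (PLXNA4, minus strand) and chr1:22915832-22915861 (EPHB2, plus strand) of GRCh38.
let-7a: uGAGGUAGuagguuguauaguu
NRP2: caagaagtgtcCTACCTCagctgaagatgg
SEMA3F: gccaccccactCTACCTCcttagctttccc
PLXND1: gcccagaaactCTACCTCatccacactggt
PLXNA2: tgcttgctgtcCTACCTCtctccacagcag
PLXNA4: tctaggagattCTACCTCcagccatctcca
EPHB2: agccaaggagaCTACCTCtcgggacctttc

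Members with a match moved in both directions. Of the 13 that were tested, 3 were higher for BE(2)C against SH-SY5Y (NRP2, PLXND1 and SEMA3F) and 7 lower, among them PLXNA2, PLXNA4 and EPHB2. For Kelly against SH-SY5Y, 4 were higher and 5 lower, and for Kelly against BE(2)C 5 and 3. Called in either direction were 59.4%, 55.3% and 52.5% of all genes in these comparisons. A match is a run of letters and was not tested as a site of repression. The E-box CACGTG is a palindrome known as a binding motif of MYC-family proteins. It was found in the 250 bases before the start of 4 of 58 members (EPHA8, SEMA3E, SEMA4D and SEMA6D), or 6.90%. Over all promoters, counted by every entry and not by gene, the share was 6.34%.

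Downstream of the receptors, 66 of 70 listed cytoplasmic effectors were tested. For BE(2)C against SH-SY5Y 11 were higher and 28 lower (median -0.22, all genes -0.04), or 59.1% where 59.4% of all genes were called, with 6 and 45 under library totals only. For Kelly against SH-SY5Y 18 were higher and 25 lower (65.2%; all genes 55.3%), with 3 and 40 on values as deposited. For Kelly against BE(2)C 29 were higher and 14 lower (65.2%; all genes 52.5%), with 16 and 13 on values as deposited. Under these other settings, the share higher among all called genes was 23.6%, 12.1% and 40.1%, in order of the comparisons. DPYSL4, a collapsin response mediator of the kind that relays semaphorin signals to microtubules, averaged 241 ± 7.50 for SH-SY5Y, 84.2 ± 10.3 for Kelly and 23.1 ± 2.12 for BE(2)C. CDK5R1, the activator of the kinase CDK5, had the same order, at 70.02 ± 4.59, 22.9 ± 1.72 and 8.67 ± 0.884. DOCK3, an exchange factor for RAC1, averaged 15.4 ± 1.69 for Kelly and was at 0.193 or less in every other library. SRGAP3, of the SLIT-ROBO GTPase-activating proteins, averaged 17.2 ± 3.10 for Kelly, 1.52 ± 0.947 for BE(2)C and 2.83 ± 0.807 for SH-SY5Y.

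Of 49 other listed guidance genes, 37 were tested. For BE(2)C against SH-SY5Y 12 were higher and 14 lower, for Kelly against SH-SY5Y 15 and 11, and for Kelly against BE(2)C 16 and 9. In that order 70.3%, 70.3% and 67.6% were called, where 59.4%, 55.3% and 52.5% of all genes were. NEO1, the DCC relative neogenin, stood at 2.77, 3.01 and 2.69 across the Kelly libraries, 1.34, 0.774 and 1.23 across BE(2)C and 53.1, 53.6 and 56.2 across SH-SY5Y. SH-SY5Y was far above the others without overlap, with fold changes of -4.72 ± 0.16 for BE(2)C and -3.86 ± 0.16 for Kelly (limma, adjusted p = 3.86e-08 and 1.25e-07). NTNG2, a membrane-tethered netrin, averaged 33.95 ± 1.95 for SH-SY5Y, 6.76 ± 3.21 for Kelly and 0.567 ± 0.281 for BE(2)C. SLITRK6, of a neuronal adhesion family, averaged 19.4 ± 2.31 for SH-SY5Y, 4.70 ± 1.04 for BE(2)C and 0.487 ± 0.465 for Kelly. SLITRK1 of the same family averaged 10.2 ± 1.60 for Kelly and 12.2 ± 2.38 for BE(2)C, and was listed at 0, 0.0389 and 0 for SH-SY5Y.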

How the data were processed

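The deposited table holds log10 values of TPM plus 1 for 9 libraries, as judged from the values, which back-transform to totals of 966592 to 980009. Per the submitters' processing notes, HISAT 0.1.6, Salmon 0.3.2 and GRCh38 were used, with no role given for either tool. Spike-in (92), reporter or selection (11) and calendar-date entries (28) were not tested. Values were rescaled to the gene total and divided by an unweighted trimmed-mean factor (30% of ratios and 5% of levels trimmed at each end). Log2 values with a pseudocount of 1 were tested in limma 3.58.1 (R 4.3.3; trend, all 9 libraries, no block, two-sided) for genes that reached 1 scaled TPM in 3 or more libraries, with Benjamini-Hochberg adjustment. The script was tested on simulated data. TPM keeps no depth. The members, lists and rules were chosen with earlier results of these data known. Values in every library are given, per family, for up to 4 called members with the largest fold change and at least 10 scaled TPM in their highest line, and up to 4 genes of each further list are named likewise. Alternatives changed the scaling, pseudocount, filter, libraries in the fit, prior and replicate block, or left out 1 library. Those that changed the scaling used no trimmed-mean factor, also where mitochondrial genes were out of the total. Values as deposited also kept spike-ins in the total, under the same filter and pseudocount. No libraries held identical values.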

Additional observations from a re-analysis of the deposited data

How the results depend on the processing

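Depth is unknown, so counting error could not be set beside any value. Scaling to library totals only shifted the median of all genes to -0.44 (BE(2)C against SH-SY5Y), -0.129 (Kelly against SH-SY5Y) and 0.309 (Kelly against BE(2)C). In the first comparison the median of the tested members was -0.703 with library totals only, -0.912 on values as deposited, -0.483 with mitochondrial genes out of the total, -0.619 with a pseudocount of 0.1, -1.013 with a filter at 10, -0.666 with only the 2 lines fitted, and -0.549 to -0.274 when 1 library was left out. In the second it was -0.736 as deposited, -0.367 with a filter at 10 and -0.314 to -0.082 with 1 library left out, and in the third 0.038 as deposited, 0.107 with a pseudocount of 10 and 0.231 to 0.51 with 1 left out. Effectors numbered 6 higher and 45 lower in the first comparison with library totals only, 3 and 46 as deposited; as deposited, 3 and 40 in the second and 16 higher in the third, where totals only gave 8 lower. Other guidance genes higher as deposited were 7, 8 and 10, and 7 were lower in the second with a filter at 10. Members higher as deposited were 12 in the second and 14 in the third, and with totals only 8 were lower in the third. Among all called genes, the share higher in these comparisons was 18.2%, 12.1% and 40.1% as deposited. With totals only it was 23.6%, 41.5% and 74.3%. The causes of the moves of members, effectors and other guidance genes were not tested.

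With 1 library left out, members higher and lower ranged over 15 to 19 and 23 to 27 in the first comparison, 17 to 21 and 17 to 23 in the second and 20 to 27 and 11 to 13 in the third. Some fold changes turned sign, and of these SLIT3 in the first comparison was called in both directions. In the first comparison EPHB3 was -0.046 as deposited, UNC5A -0.01 with totals only and -0.109 as deposited, SLIT3 -0.225, -0.329 and -0.104 (totals only, as deposited, quantile normalization) and DOCK3 0.036 with quantile normalization. In the second EFNA3 was 0.007 and EPHA8 0.084 with quantile normalization, EFNA5 -0.117 as deposited, and ROBO1 -0.119, -0.397 and -0.122 (totals only, as deposited, mitochondrial genes out). In the third, totals only gave 0.163 for NRP1, 0.288 for PLXND1, 0.285 for EFNB1, 0.046 for SLIT3 and 0.06 for SLITRK1; with mitochondrial genes out PLXND1 was 0.045 and EFNB1 0.043, and UNC5C was -0.027 as deposited. Leaving out 1 library gave ranges that crossed 0 in the second comparison for EFNA3 (-0.164 to 0.054), EPHA8 (-0.218 to 0.1), UNC5A (-0.432 to 0.053) and ROBO1 (-0.109 to 0.082), and in the third for PLXND1 (-0.105 to 0.064) and EFNB1 (-0.092 to 0.013).

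Libraries with the same number did not deviate together (r from -0.054 to 0.027 over 9 pairs). With the replicate block, members higher and lower were 17 and 26, 21 and 20, and 25 and 12; calls of PLXNA3 in the second comparison and SEMA3D, NRP2 and SEMA3A in the third ended.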
